A study of Mus musculus with 6 samples.

Results

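The 10 genes described here encode carriers that bring amino acids into red cell precursors: Slc6a9, Slc43a1, Slc38a5, Slc3a2, Slc7a5, Slc38a2, Slc1a5, Slc38a1, Slc7a1 and Slc7a6. They were chosen by symbol, from what is known of them and with earlier results of these data in view, and were read by every probe set annotated to 1 of these symbols alone. This gave 18 of 34945 single-gene probe sets, and 10 of 18193 genes. Expression was measured on Affymetrix arrays in bone marrow erythroid progenitors of 6 female mice that were 6 weeks old, 1 array per mouse. The cells had been sorted as CD71+Ter119+, that is, by the receptor for transferrin and by an antigen of the red cell surface. The 3 control mice were Bcl11a +/+. The 3 knockout mice were Bcl11a fl/fl EpoR-Cre+, so that Cre recombinase, driven from the erythropoietin receptor gene, acts on floxed Bcl11a in the red cell lineage. EpoR-Cre is named for the knockout mice alone, and the Cre status of the controls is not stated. Unless the controls carried it too, the part of Cre and the EpoR-Cre allele cannot be told apart from that of Bcl11a.

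A maturing red cell makes very large amounts of globin and heme and therefore draws on amino acids from the plasma. Glycine is joined to succinyl-CoA in the first step of heme synthesis, and leucine both enters globin and signals amino acid supply to the growth kinase complex mTORC1. Some carriers are driven by sodium and concentrate their substrate, and some are exchangers or facilitators. Several exchangers and facilitators let large neutral amino acids cross in either direction. Some exchangers work only as a pair of a light chain, which forms the path, and the heavy chain CD98, which brings it to the membrane.

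The arrays had nearly equal medians, between 67.5 and 70.9 intensity units. Bcl11a itself was read by 7 probe sets, the brightest at 1475, 1553 and 1450 in the control mice and at 1286, 1419 and 1190 in the knockout mice, a log2 change of -0.20 ± 0.11 (SE, limma, adjusted p = 0.502). Its probe sets went both ways: 4, this one included, lay apart on the low side with changes down to -0.40, 2 lay apart on the high side with 0.23 and 0.32, and 1 overlapped. No source used here places these probes inside or outside the deleted part, so the level does not check the genotype. Of 10 measured erythroid markers, such as the transcription factors Gata1 and Klf1 and the membrane protein Slc4a1, each lay above the array median on every array. Their summed intensity was 74078 to 92539 in the controls and 97081 to 107674 in the knockouts. In bulk RNA fewer cells of a type and less RNA per cell cannot be told apart. Neutrophil markers were also bright in all mice, with a sum of 211975 to 214367 over 10 genes in the controls and 195991 to 205210 in the knockouts. B cell markers summed to 16908 to 20137 over 9 genes in the controls and 12315 to 16456 in the knockouts. The part of these cell types in the transporter values was not tested. Among the controls, mouse 2 stood apart. It had the lowest control value for all 10 erythroid markers and for 8 of the 10 transporter genes, against 38.3% of genes of the brighter 50%.

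None of the 18 transporter probe sets passed the test over the whole array, which called 0.147% of 45037 probe sets (limma on log2(intensity + 16), adjusted p threshold of 0.05, two-sided). At an unadjusted p under 0.05 there were 8 of the 18, of which 6 were higher and 2 lower in the knockout, against 12.4% of all probe sets. In 6 of the 18 the groups did not overlap and the knockouts were higher, against 10.6% of all probe sets, and in 2 they did not overlap and the knockouts were lower, against 8.91%. The exact two-sided permutation p of each such probe set was 0.1, the smallest that 3 against 3 mice allow. Counted by the brightest probe set of each gene, the knockout values lay apart on the high side in 6 of 10 genes, against 12.4% of all genes and 17.0% of genes of the brighter 50%, and on the low side in none, against 9.22% and 12.3%. The 6 include Slc6a9 by a probe set that is its brightest only because of the knockout arrays. With each gene read by the probe set brightest in the controls, a choice added after the data were seen, 5 of 10 lay apart on the high side, against 12.0% of all genes. The median log2 change over the 10 genes was 0.34, over all genes it was 0.00, and over 10 erythroid markers it was 0.52.

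**Figure D1:**
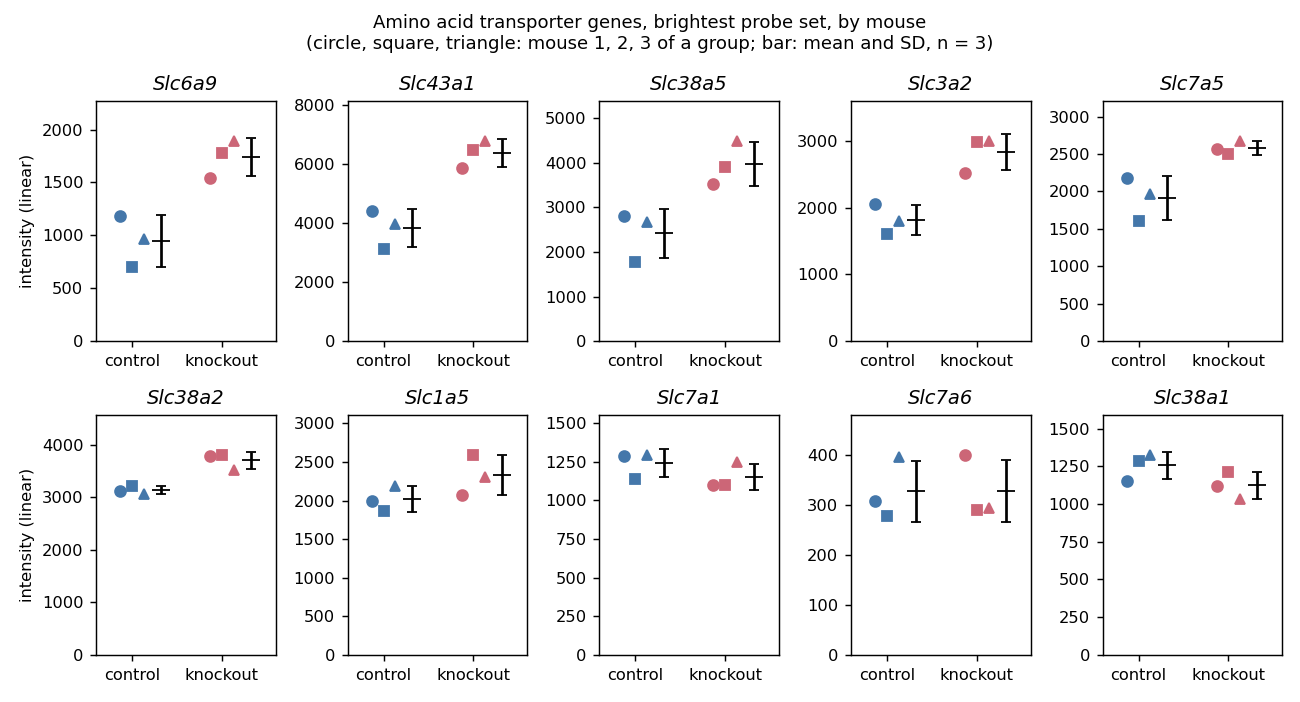
Intensity (linear scale, from 0) of the brightest probe set of each gene in each mouse, with the mean and SD of the 3 mice of a group. In Slc6a9, Slc43a1, Slc38a5, Slc3a2, Slc7a5 and Slc38a2 the lowest knockout value exceeds the highest control value, and in the other 4 genes the groups overlap.

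Slc6a9 encodes GlyT1, the sodium- and chloride-driven glycine carrier of erythroid cells. The probe set 1417636_at, the brighter over all 6 arrays, read 1182, 698.5 and 961.6 in control mice 1 to 3 and 1540, 1783 and 1894 in knockout mice 1 to 3. All knockout values lay above all control values, and the lowest knockout value was 1.30 times the highest control value. The means were 947 ± 242 and 1739 ± 181 (SD, n = 3), a ratio of 1.84 and a log2 change of 0.89 ± 0.20 (SE, 95% interval 0.40 to 1.38), the largest among the 18 probe sets (limma, adjusted p = 0.204). The other probe set, 1431812_a_at, gave a different picture, with 1208, 784.3 and 953.8 in the controls and 1306, 1051 and 1252 in the knockouts. In the controls this one was the brighter, with a mean of 982 against 947. Here the groups overlapped, and the log2 change was 0.30 ± 0.18 (95% interval -0.13 to 0.74). Without control mouse 2 the change of 1417636_at was 0.69 (limma, adjusted p = 0.321).

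Slc43a1 encodes LAT3, a facilitator of leucine and other large neutral amino acids that needs no heavy chain. Its 1 probe set read 4399, 3136 and 3968 in the controls and 5875, 6490 and 6794 in the knockouts. The groups were separated by a factor of 1.34 between the highest control and the lowest knockout, the widest gap among the 18 probe sets. The means of 3835 ± 642 and 6386 ± 468 (SD, n = 3) gave a ratio of 1.67 and a log2 change of 0.74 ± 0.15 (SE, 95% interval 0.38 to 1.11), with the smallest p of the 18 (limma, adjusted p = 0.170). Without control mouse 2 the change was 0.61 (limma, adjusted p = 0.286).

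Slc38a5 encodes SNAT5, which carries glutamine, histidine, serine and glycine with sodium and in exchange for protons. Its 1 probe set read 2800, 1783 and 2668 in the controls and 3528, 3905 and 4491 in the knockouts. Control mouse 2 was again the lowest, at 65.2% of the mean of the other controls, as it was for Slc6a9. The log2 change was 0.73 ± 0.20 (SE, 95% interval 0.25 to 1.22, limma, adjusted p = 0.248), and without control mouse 2 it was 0.53 (limma, adjusted p = 0.348).

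The heavy chain Slc3a2 and the light chain Slc7a5 had higher values in every knockout mouse than in any control. Slc3a2, the CD98 heavy chain, read 2056, 1608 and 1802 in the controls and 2524, 2990 and 3007 in the knockouts, so the groups lay apart. Its log2 change was 0.64 ± 0.14 (SE, 95% interval 0.31 to 0.97, limma, adjusted p = 0.179), and 0.55 without control mouse 2. Slc7a5, the light chain LAT1 that exchanges leucine and other large neutral amino acids, read 2174, 1600 and 1969 in the controls and 2573, 2495 and 2676 in the knockouts. These groups lay apart too, by a factor of 1.15, and the log2 change was 0.44 ± 0.14 (95% interval 0.11 to 0.77, limma, adjusted p = 0.299), or 0.32 without control mouse 2.

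Slc7a6 encodes y+LAT2, a light chain that exchanges arginine for glutamine or leucine. Its brighter probe set, 1460541_at, read 307.9, 278.9 and 395.4 in the controls and 400.7, 290.7 and 293.2 in the knockouts, with overlapping groups and a log2 change of 0.00 (95% interval -0.44 to 0.44). Its dimmer probe set, 1433467_at, read 186.4, 192.6 and 197.4 in the controls and 150.6, 149.3 and 150.8 in the knockouts, so each knockout value lay below each control value. The log2 change there was -0.32 ± 0.09 (SE, 95% interval -0.54 to -0.11, limma, adjusted p = 0.255). The difference between Slc7a5 and Slc7a6 was not tested. The further light chains Slc7a7, Slc7a8, Slc7a10 and Slc7a11 had changes of -0.16, 0.01, 0.08 and -0.14, with overlapping groups.

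**Figure D2:**
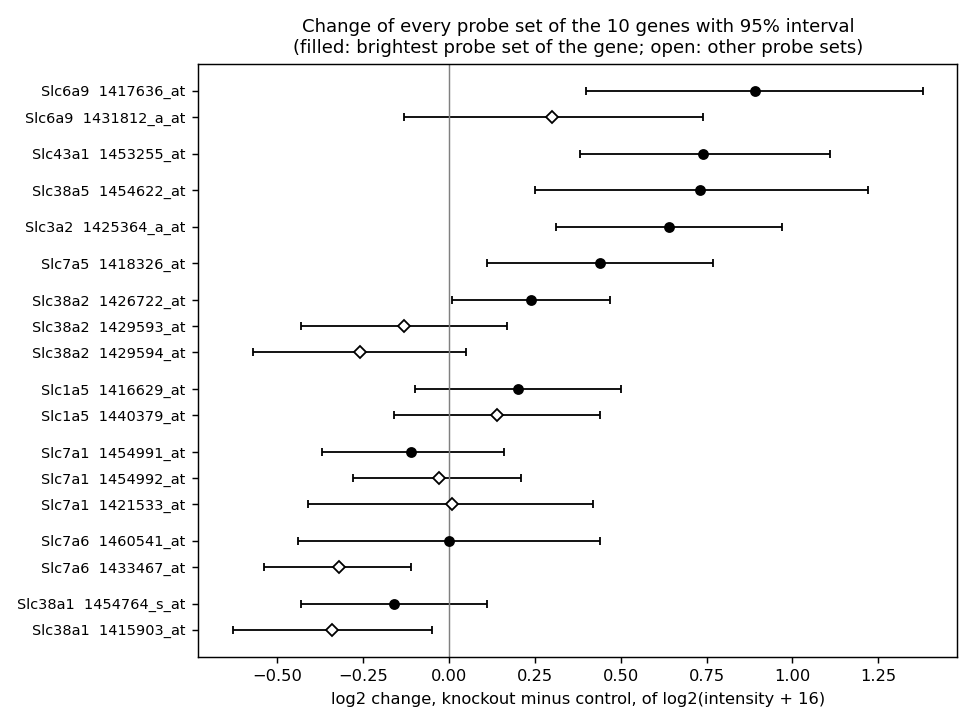
Log2 change, knockout minus control, of log2(intensity + 16) for all 18 probe sets, with the 95% interval of the fit. The intervals lie above 0 for Slc6a9 (1417636_at), Slc43a1, Slc38a5, Slc3a2, Slc7a5 and 1 of the 3 probe sets of Slc38a2, and below 0 for 1 probe set each of Slc7a6 and Slc38a1.

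Slc38a1 and Slc38a2 encode SNAT1 and SNAT2, sodium-driven carriers of small neutral amino acids such as alanine and glutamine. The probe set of Slc38a1 with the higher level, 1454764_s_at, read 1153, 1287 and 1327 in the controls and 1119, 1213 and 1036 in the knockouts. Its groups overlapped, with a log2 change of -0.16 ± 0.11 (SE, 95% interval -0.43 to 0.11). The second, 1415903_at, read 906.0, 1071 and 999.1 in the controls and 777.7, 861.7 and 709.5 in the knockouts, apart on the low side, with a change of -0.34 ± 0.12 (95% interval -0.63 to -0.05, limma, adjusted p = 0.349). For Slc38a1 control mouse 2 was not the lowest control in either probe set.

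The probe sets of Slc38a2 went different ways. The brightest, 1426722_at, read 3123, 3208 and 3068 in the controls and 3785, 3807 and 3510 in the knockouts, apart on the high side, with a log2 change of 0.24 ± 0.09 (SE, 95% interval 0.01 to 0.47, limma, adjusted p = 0.383). The others, 1429593_at and 1429594_at, had changes of -0.13 and -0.26 with overlapping groups. The mean of its 3 probe sets changed by -0.05, so the files give no settled direction for this gene. Which transcript forms the probe sets read was not analysed here.

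Slc1a5 encodes ASCT2, a sodium-dependent exchanger of alanine, serine, cysteine and glutamine. It read 2001, 1865 and 2194 in the controls and 2077, 2596 and 2310 in the knockouts, with overlapping groups and a log2 change of 0.20 ± 0.13 (SE, 95% interval -0.10 to 0.50). The second probe set had a change of 0.14 ± 0.12.

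Slc7a1 encodes CAT-1, the carrier of arginine and lysine and the receptor of ecotropic murine leukemia virus. Its brightest probe set, 1454991_at, read 1288, 1136 and 1295 in the controls and 1102, 1099 and 1246 in the knockouts, with overlapping groups. The log2 change was -0.11 ± 0.11 (SE, 95% interval -0.37 to 0.16). That of 1454992_at was -0.03, and the third, 1421533_at, lay between 24.2 and 46.4, below the array median on every array, with a change of 0.01.

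Sequences upstream of annotated starts were compared because Slc6a9, Slc43a1, Slc38a5 and Slc3a2 had the largest log2 changes and lay apart in all mice. RefSeq (GRCm38.p6) windows from 250 bases before to 50 after a start were at hand for 7 of the 10 genes (Slc6a9, Slc43a1, Slc38a5, Slc3a2, Slc38a2, Slc7a1 and Slc7a6), 11 windows in all. The windows of Slc43a1 and Slc3a2 belong to starts inside the annotated gene, and Slc6a9 has 3 windows, of which the outermost is shown. The 250 bases before each start are given 5′ to 3′ on the gene's strand. Capitals mark matches on either strand to TGATGNAA, the element read by ATF4 with C/EBP factors, to the GATA motif (GATA with A or T before it and A or G after it), to the E-box CACGTG, to CCNCNCCC, a KLF motif, and to TGACCA, the motif of BCL11A, which was added after the sequences were seen. Overlapping matches of a motif run together.
Slc6a9, chr4:117835008-117835257, plus strand: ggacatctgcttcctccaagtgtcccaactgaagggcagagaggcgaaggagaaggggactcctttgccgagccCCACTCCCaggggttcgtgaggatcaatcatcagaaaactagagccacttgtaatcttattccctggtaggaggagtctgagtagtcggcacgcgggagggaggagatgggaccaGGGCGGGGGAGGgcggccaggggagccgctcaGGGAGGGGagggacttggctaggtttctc
Slc43a1, chr2:84840073-84840322, plus strand: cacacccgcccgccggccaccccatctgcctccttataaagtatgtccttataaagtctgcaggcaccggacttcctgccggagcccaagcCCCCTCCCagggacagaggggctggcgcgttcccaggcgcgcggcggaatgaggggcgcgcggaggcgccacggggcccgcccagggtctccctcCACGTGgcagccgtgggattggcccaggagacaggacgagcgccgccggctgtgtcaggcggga
Slc38a5, chrX:8271131-8271380, plus strand: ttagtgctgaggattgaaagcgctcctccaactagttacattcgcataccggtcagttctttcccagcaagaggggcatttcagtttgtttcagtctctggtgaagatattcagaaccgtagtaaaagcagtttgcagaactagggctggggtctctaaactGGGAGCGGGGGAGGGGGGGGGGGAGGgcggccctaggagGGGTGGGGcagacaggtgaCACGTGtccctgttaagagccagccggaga
Slc3a2, chr19:8713898-8714147, minus strand: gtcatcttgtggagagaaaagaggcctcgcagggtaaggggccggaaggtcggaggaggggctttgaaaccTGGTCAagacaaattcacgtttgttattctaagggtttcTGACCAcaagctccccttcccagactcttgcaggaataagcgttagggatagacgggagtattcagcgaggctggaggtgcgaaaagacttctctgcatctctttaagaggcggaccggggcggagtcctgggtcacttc

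The motif CCNCNCCC was in all 11 windows of the 7 genes and in 49.5% of 32851 windows of the same length over the genome. In Slc3a2 its only match lies after the start, outside the bases shown. The 2 windows of Slc7a6 overlap and hold the same matches, so the 11 windows are not independent. The E-box was in the windows of Slc43a1, starting 64 bases before the start, and of Slc38a5, starting 30 bases before it, and in 7.15% of all windows. TGACCA was in the window of Slc3a2 alone among the 7 genes, at 2 places that begin 179 and 140 bases before the start, and in 13.6% of all windows. A GATA motif was in 1 of the 11 windows, that of Slc38a5, where it lies after the start, and in 29.8% of all windows. TGATGNAA was in none of the 11 and in 3.97% of all windows. These are matches of letters, and binding was not measured.

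Profiles over the 6 mice were compared next. Against Slc6a9 (1417636_at), 10829 genes of the brighter 50% were ranked by the root mean square difference of their log2 deviations from the control mean. The 5 nearest were 1300017J02Rik (0.0421 log2 units), the blood group enzyme gene Kel (0.0531), the transcription factor gene Tal1 (0.0535), the claudin gene Cldn13 (0.0667) and Ypel4 (0.0820). Slc43a1 ranked 27, Slc38a5 ranked 29, Slc3a2 ranked 122 and Slc7a5 ranked 366, followed by Slc38a2 at 1650 and Slc1a5 at 1654. Slc7a1, Slc7a6 and Slc38a1 ranked 6807, 5903 and 8786. The distance is a description over 6 arrays that hold the same contrast.

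**Figure D3:**
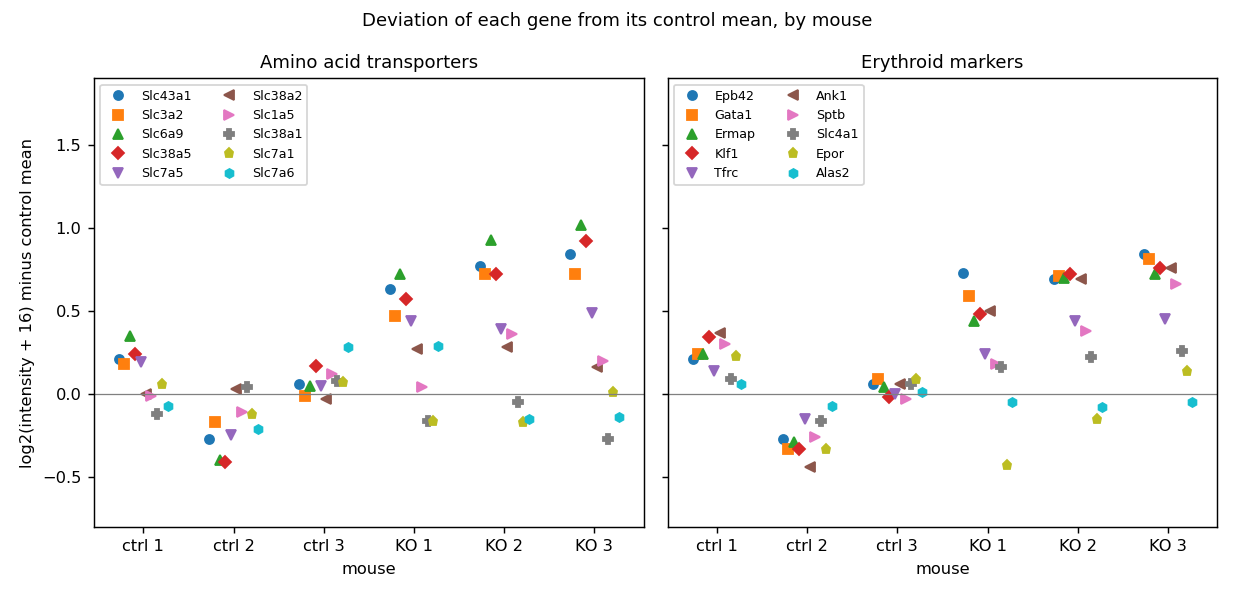
Log2(intensity + 16) minus the control mean of the gene, in each of the 6 mice, for the brightest probe sets of the 10 transporter genes (left) and of 10 erythroid markers (right). Control mouse 2 has the lowest control value in 8 transporters and in 10 markers, and Slc6a9, Slc43a1, Slc38a5 and Slc3a2 lie at 0.47 or higher in all 3 knockouts.

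Erythroid markers were read on the same arrays. Of the 10 markers, 8 had a log2 change above 0. None passed the test (limma, 6 at an unadjusted p under 0.05, against 2318 of all 18193 genes). The median log2 change of the 10 markers was 0.52. On the high side 7 lay apart and on the low side none, against 12.4% and 9.22% of all genes. Among the higher ones Epb42 had 0.75, Gata1 0.70 and Klf1 0.65. The markers with changes below 0 were Epor at -0.14 and Alas2 at -0.06, both with overlapping groups. Epor is also the gene from which Cre is driven in the knockout mice. The part of that allele in its value, and so in the marker mean, was not tested. The mean of the 10 markers differed by 0.42 log2 units between the groups, and lay at -0.26 in control mouse 2 relative to the control mean. Transporters were therefore also given as a difference from the marker mean of the same array, a scale chosen after the data were seen and used without a test.

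This scale lowers the change of every gene by 0.42, and on it the carriers lay on both sides of 0. Relative to the control mean, the marker mean lay at -0.26 to 0.22 in the controls and at 0.28 to 0.53 in the knockouts. A gene with equal values in all mice therefore lies apart on the low side here. The share of all genes that lie apart on this scale was not computed. The markers themselves spread around their mean, with plain log2 changes from -0.14 (Epor) to 0.75 (Epb42). A difference above 0 on this scale is therefore not particular to the carriers. Epb42 changed about as much as Slc43a1, which had a plain log2 change of 0.74. Slc43a1 lay at -0.26, -0.26 and -0.23 log2 units from the markers in the controls and at 0.09, 0.09 and 0.05 in the knockouts, a difference of 0.33 with very little spread within either group. Slc6a9 (1417636_at) differed by 0.48, Slc38a5 by 0.32 and Slc3a2 by 0.22, each with groups apart, while the other probe set of Slc6a9 differed by -0.11 with overlapping groups. Slc7a5 differed by 0.02, with -1.27, -1.23 and -1.23 in the controls and -1.09, -1.29 and -1.29 in the knockouts, so relative to the markers its groups overlapped. Slc7a1 differed by -0.52 and Slc38a1 by -0.58, with each knockout value below each control value. Slc7a6, Slc1a5 and Slc38a2 differed by -0.41, -0.22 and -0.18, with overlapping groups, so the sign of Slc1a5 and of Slc38a2 turned on this scale. Those groups overlapped in the brightest probe set alone: 1433467_at of Slc7a6 differed by -0.74, the second probe set of Slc1a5 by -0.28, and 1429593_at and 1429594_at of Slc38a2 by -0.55 and -0.68, each apart on the low side.

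Of 45 further amino acid carriers 43 were measured. None passed the test (limma, 2 at an unadjusted p under 0.05, against 2318 of all 18193 genes). On the high side 3 lay apart and on the low side 1, against 12.4% and 9.22% of all genes. The median log2 change of the 43 was 0.02. The largest change was that of Slc16a10, the aromatic amino acid facilitator TAT1, at 1398, 1011 and 1191 in the controls and 1884, 2121 and 2169 in the knockouts. Its log2 change was 0.78 ± 0.15 (SE, limma, adjusted p = 0.147), while its other 3 probe sets had changes of 0.42, 0.19 and 0.31 with overlapping groups. Slc36a3 had 0.32 (limma, adjusted p = 0.361), at intensities of 49.4 to 81.1. Slc38a9, the lysosomal arginine sensor, had 0.25 (limma, adjusted p = 0.422).

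Genes that answer amino acid shortage had changes in both directions. Of 27, all measured, none passed (limma, 7 at an unadjusted p under 0.05, against 2318 of all 18193 genes), and the median was -0.01. On the high side 7 lay apart and on the low side 4, against 12.4% and 9.22% of all genes. Eif2ak1, the heme-regulated kinase of eIF2 alpha, read 3538, 2805 and 3245 in the controls and 4813, 5708 and 5832 in the knockouts, a log2 change of 0.77 ± 0.14 (SE, limma, adjusted p = 0.131). All 5 of its probe sets had changes above 0, from 0.18 to 0.77. Pck2, mitochondrial PEP carboxykinase, had 0.54 (limma, adjusted p = 0.172) and Phgdh, the first enzyme of serine synthesis, had -0.54 (limma, adjusted p = 0.229), with all 4 of its probe sets below 0. The change farthest from 0 in the list was that of Atf3, at -0.91 ± 0.24 (SE, limma, adjusted p = 0.241), apart on the low side. Eif2ak4, the other eIF2 alpha kinase of the list, had -0.02 ± 0.13 in its brightest probe set, with overlapping groups. The transcription factor Atf4 itself had 0.17 ± 0.12 (SE), and its target Asns, asparagine synthetase, 0.23 ± 0.12.

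**Figure D4:**
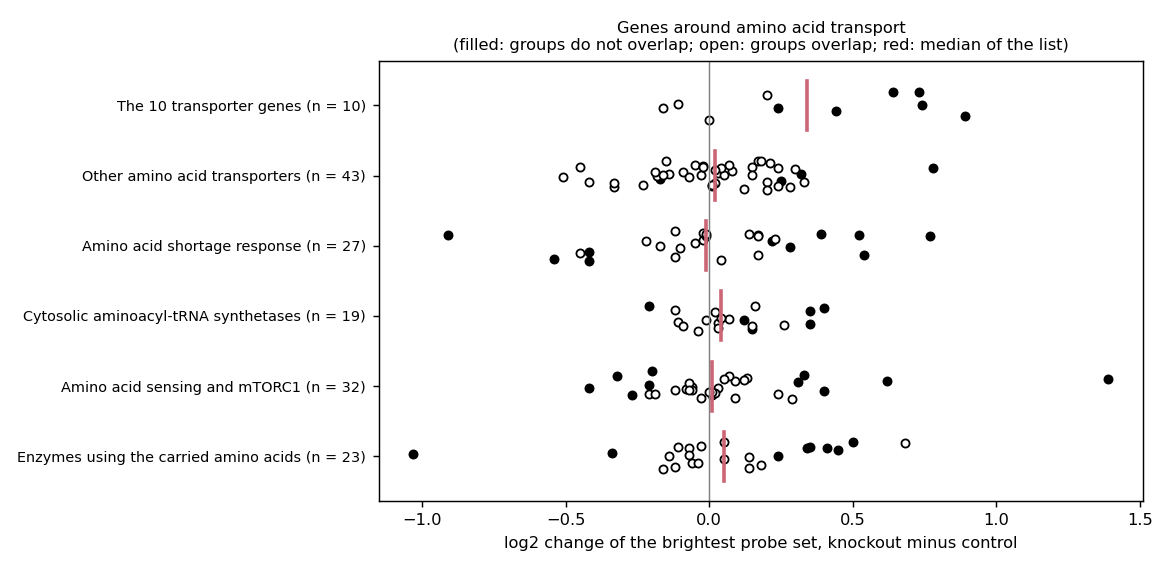
Log2 change of the brightest probe set of each gene, knockout minus control, in the 10 transporter genes and 5 lists of related genes; filled points are genes whose groups do not overlap, and red bars are medians. The median is 0.34 for the 10 genes and between -0.01 and 0.05 for the 5 lists. For the 10 erythroid markers, which are not drawn here, it is 0.52.

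In the list of amino acid sensing and mTORC1, 32 of 35 genes were measured. None passed (limma, 6 at an unadjusted p under 0.05, against 2318 of all 18193 genes), and the median was 0.01. On each side 5 lay apart, against 12.4% of all genes on the high and 9.22% on the low side. Rragd, a Rag GTPase that ties mTORC1 to the lysosome, read 181.2, 182.0 and 143.7 in the controls and 391.6, 434.9 and 599.6 in the knockouts. Its log2 change of 1.39 ± 0.19 (SE, limma, adjusted p = 0.0786) was the largest of the 5 lists, while its dimmer probe sets had 0.23 and -0.23. Sesn1, a sestrin that restrains mTORC1, had 0.62 ± 0.10 (limma, adjusted p = 0.115), and all 4 of its probe sets lay apart on the high side.

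Of 20 cytosolic aminoacyl-tRNA synthetases, which load amino acids onto tRNA, 19 were measured. None passed (limma, 3 at an unadjusted p under 0.05, against 2318 of all 18193 genes). Of these synthetases 5 lay apart on the high and 1 on the low side, against 12.4% and 9.22% of all genes. The median of the 19 was 0.04. Nars and Hars, for asparagine and histidine, each had 0.35 (limma, adjusted p = 0.308 and 0.314).

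Of 27 genes that use the carried amino acids, 23 were measured. None passed (limma, 7 at an unadjusted p under 0.05, against 2318 of all 18193 genes), and the median was 0.05. On the high side 6 lay apart and on the low side 2, against 12.4% and 9.22% of all genes. Bcat1, the cytosolic enzyme that removes the amino group of leucine, read 65.6, 109.6 and 97.2 in the controls and 45.0, 33.6 and 28.7 in the knockouts, a log2 change of -1.03 ± 0.20 (SE, limma, adjusted p = 0.158), with -0.30 and 0.14 in its dimmer probe sets. Gclm, of glutathione synthesis, had 0.50 (limma, adjusted p = 0.253) and Odc1, which turns ornithine into putrescine, had 0.41 (limma, adjusted p = 0.266). Alas2, the erythroid enzyme that uses glycine for heme, had -0.06 ± 0.09, at intensities of 23630 to 26010.

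Whether a transporter was called depended on how the variances were pooled. With an intensity trend and robust moderation, limma called 4 of the 18 probe sets higher, against 2.68% of all probe sets, and none lower, against 0.531% (2 were lower at an unadjusted p under 0.05 in the fit without trend). The 4 were Slc43a1 (limma, adjusted p = 0.00239), Slc3a2 (limma, adjusted p = 0.00266), Slc6a9 by 1417636_at (limma, adjusted p = 0.0141) and Slc7a5 (limma, adjusted p = 0.0292). By the brightest probe set of each gene this was 4 of 10, against 3.62% of all genes and 6.03% of genes of the brighter 50%. By the probe set brightest in the controls it was 3 of 10, without Slc6a9, against 3.55% of all genes. Slc38a5 missed it (limma, adjusted p = 0.0510). The trend also called genes of the lists. Higher were 1 of 43 further carriers, 3 of 27 shortage genes and 2 of 19 synthetases. So were 3 of 32 sensing genes, 3 of 23 enzymes and 4 of the 10 erythroid markers. Lower were 2 shortage genes, 1 sensing gene and 1 enzyme, against 110 of 18193 genes. Rragd, Eif2ak1, Sesn1 and Slc16a10 had smaller values than any of the 18 probe sets (limma, adjusted p = 0.000215, 0.00048, 0.000612 and 0.00119).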

How the data were processed

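Trizol-extracted RNA was labelled as biotinylated cRNA for Affymetrix arrays, per the labels' protocols. The authors deposited 1 linear intensity per probe set and array. How probes were summarised and scaled is named by no source used here. The table held no detection calls.

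Intensities became log2(intensity + 16), which understates changes of dim probe sets. The array medians differed by 0.0567 and the interquartile ranges by 0.0699 on that scale, under the tolerance of 0.1, so no further normalization was made. The knockout was set against the control in limma 3.58.1 under R 4.3.3 (lmFit, eBayes, two-sided) over all 45037 probe sets with no filter, with Benjamini-Hochberg adjustment. The labels number the mice as separate animals. Intervals are 95%.

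The platform annotation named 1 gene for 34945 probe sets, several for 932 and none for 9160; by Entrez ID, 34741 matched RefSeq (GRCm38.p6). The brightest probe set stood for a gene. Named genes are all 10 transporters, the few of each list with the smallest p, and the 5 nearest in profile to Slc6a9. Gata1, Klf1, Epb42, Epor, Atf3, Atf4, Eif2ak4, Asns and Alas2 were added after their values were seen. The transporters and lists were chosen with earlier results of these data known. Alternatives were quantile normalization, median centring, other pseudocounts, brighter probe sets, an intensity trend, array weights, the replicate block, each mouse left out, and the mean of a gene's probe sets. The number of arrays limits the precision.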

Additional observations from a re-analysis of the deposited data

How the results depend on the processing

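Slc7a6 had no direction, at 0.00, and lay between -0.16 and 0.14 under its 15 alternative settings, and at -0.41 relative to the erythroid markers. Under 144 planned combinations of 1 of the other 9 transporter genes and an alternative, 128 kept both the direction and the side of the threshold, 15 passed the threshold (limma) and 1 turned sign, Slc38a2 at -0.05 with the mean of its probe sets. Relative to the erythroid markers, Slc38a2 had -0.18 and Slc1a5 -0.22. By the probe set brightest in the controls, chosen after seeing the data, Slc6a9 had 0.30, and the other genes had the same probe set. The 15 calls lay in Slc43a1, Slc3a2, Slc6a9, Slc7a5, Slc38a5 and Slc38a2. They came from the trend, from brighter probe sets or from a pseudocount of 64, and the cause was not tested. No transporter probe set was called on leaving out any 1 mouse. Without 1 mouse in turn the log2 change of Slc6a9 was 0.69 to 1.07, of Slc43a1 0.61 to 0.85, of Slc3a2 0.55 to 0.73, of Slc38a5 0.53 to 0.85 and of Slc7a5 0.32 to 0.54.

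Of the transporter probe sets, 6 were called higher and 1 lower in the brightest 25%, 3 higher in the brightest 50%, 4 higher with the trend and 2 higher with a pseudocount of 64. Dim transporter probe sets drop out of the brighter subsets, and the number left was not counted. The calls in those subsets therefore give no share of transporters to set beside that of all probe sets. Calls over all probe sets rose under the same settings, as given next. Across the array, 63 of 45037 probe sets were called higher and 3 lower. These were 1319 and 358 in the brightest 25% of the 45037, and 697 and 142 in the brightest 50%. With the trend they were 1206 and 239, that is 2.68% and 0.531%. They were 508 and 50 with a pseudocount of 64, and 38 and 0 with a pseudocount of 1. With array weights 5 were lower. Leaving out 1 mouse gave 27 to 41 higher and 0 to 1 lower.

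With the replicate number as a block, 14 probe sets were called higher and 0 lower, and 0 transporters. Deviations of same-numbered mice correlated at -0.066, -0.004 and -0.066 over the brighter 50% of probe sets, and those of differently numbered mice at -0.033 to 0.086. No shared deviation of same-numbered mice was seen. Whether the numbers pair the mice in another way cannot be told from these values.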

Other observations

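Markers of other cell types are given for the sorts as a whole. T cell markers summed to 1591 to 1899 over 6 genes in the controls and 1749 to 1974 in the knockouts, and macrophage markers to 9606 to 10950 over 10 genes in the controls and 10754 to 11512 in the knockouts. Among the macrophage markers Siglec1 and Marco lay below the array median on all arrays. Basophil and mast cell markers summed to 5809 to 6179 over 5 genes in the controls and 3737 to 5291 in the knockouts, with Mcpt4 below the array median on all arrays. Megakaryocyte markers summed to 1501 to 1898 over 4 genes in the controls and 1329 to 2271 in the knockouts, with Gp6 below the array median. Within the B cell list the surrogate light chain genes Igll1 and Vpreb1 had log2 changes of -1.31 and -1.19, and Cd22 had 0.01 (limma, adjusted p = 0.136, 0.168 and 0.994).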
